A study of Homo sapiens with 8 samples.

Results

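RNA polymerases I, II and III are assembled from the products of the POLR1, POLR2 and POLR3 genes. The members were the rows of the deposited gene count table with the GENCODE biotype protein_coding and a symbol made of POLR1, POLR2 or POLR3 and a letter. This rule gave 33 of 58302 genes, of which 8 carry a POLR1 symbol, 15 a POLR2 symbol and 10 a POLR3 symbol. By the composition of the enzymes, 6 belong to polymerase I alone, 10 to polymerase II alone and 10 to polymerase III alone, while 2 are shared by polymerases I and III and 5 by all 3. RNA sequencing was done in DLD1 cells, a human colorectal cancer line. OE-WT cells stably overexpressed wild-type TRMT6 and TRMT61A, the subunits of the TRMT6/61A tRNA methyltransferase, from a lentiviral vector, and CTRL cells carried the vector. Each group had 2 libraries, and the labels list 8 samples because every library was run on 2 lanes that the table does not separate. The methods of the study give 3 biological replicates per group, where the labels and the table hold 2 libraries. The labels do not say whether these 2 came from separate cultures, and if they did not, the p-values measure a technical spread.

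Polymerase I transcribes the ribosomal RNA precursor in the nucleolus. Polymerase II makes messenger RNA and many small nuclear RNAs, and polymerase III makes tRNA, 5S ribosomal RNA and other short RNAs. In each enzyme the largest and second-largest subunits, A and B, form the catalytic centre. Around them sit an assembly platform, a stalk that meets the emerging RNA, and small subunits that are common to several enzymes. Polymerases I and III also carry built-in counterparts of general initiation factors that polymerase II recruits separately.

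The counts summed to between 10327498 and 12379671 per library, and 14133 genes passed edgeR's filter on low counts. Values below are CPM, read counts relative to the TMM-scaled library size, and log2 fold changes are OE-WT over CTRL. TRMT6 was higher in OE-WT by a log2 fold change of 1.86 and TRMT61A by 1.21, both past the test. Epithelial markers of the colon were all measured (9 of 9 tested), although VIL1 and LGALS4 were low at 2.79 to 4.52 and 0.931 to 1.21 CPM. They moved between the groups: 2 rose (KRT8 and KRT18) and 3 fell (CDH1, KRT19 and KRT20), with KRT20, a keratin of differentiated cells, at 8.35 and 9.91 CPM in OE-WT and at 27.1 and 25.3 CPM in CTRL (log2 fold change -1.52). The endothelium marker VWF, with 5 to 30 counts per library, also fell (log2 fold change -1.65). The part of these shifts in the subunit values was not tested. Of the fibroblast, leukocyte and endothelium markers, 1 of 5, 0 of 5 and 1 of 4 had enough counts to be tested, with summed levels of at most 3.12, 0.402 and 2.33 CPM in any library. The RNA came from a cleared lysate, and the labels describe poly(A) selection where the methods of the study describe removal of ribosomal RNA.

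Of the 33 subunit genes, 31 were tested, and 5 of these rose in OE-WT at an adjusted p below 0.05 in edgeR's quasi-likelihood test while 0 fell. They were POLR1A, POLR1B, POLR2D, POLR2E and POLR3A. Over all genes tested, 9.44% were called higher and 11.6% lower, and 5 of 31 members is 16.1%. At an unadjusted p below 0.05, 9 of the 31 members passed, all of them higher. Of all 14133 genes tested, 4784 (33.8%) passed in either direction, 2313 of them higher. The median log2 fold change was 0.12 over the 31 members and 0.01 over all genes tested. No member passed an unadjusted p below 0.05 together with an absolute log2 fold change above 1, a pair of thresholds passed by 3.15% of all genes. Both OE-WT libraries lay above both CTRL libraries for 15 members and below them for 1, against 29.9% and 30.2% of all genes. The changes were small, between 1.18-fold and 1.63-fold for the 5 that passed, and in bulk RNA a change in the share of cells and a change in RNA per cell cannot be told apart. The DESeq2 Wald test called POLR1A alone among members, and 455 genes higher and 765 lower among all genes, fewer than the main test. The number higher was 2 without OE-WT replicate 2 (POLR1A and POLR2D), 3 without CTRL replicate 1 (these and POLR3A) and 7 without CTRL replicate 2 (the 5 with POLR2B and POLR3B). When libraries were scaled by their totals alone, the calls became 2 higher and 1 lower among members (POLR1A and POLR2D, and POLR2J) and 735 higher and 2448 lower among all genes, where TMM scaling gave 1334 and 1642.

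**Figure D1:**
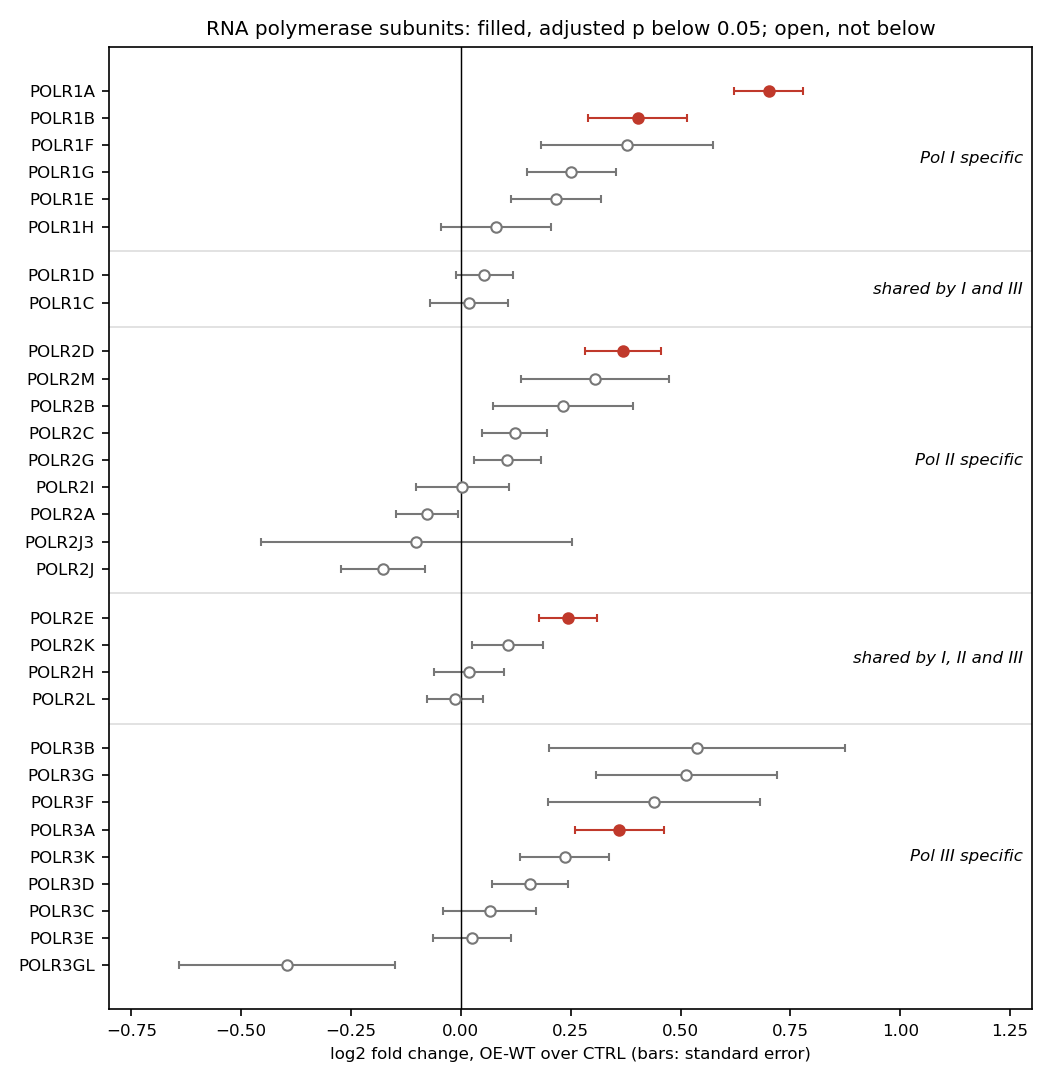
Log2 fold change of 30 tested subunits (x axis, OE-WT over CTRL) with its standard error as a bar, grouped by the polymerase it belongs to; filled red points have an adjusted p below 0.05. POLR1A stands farthest to the right at 0.70, and POLR3GL farthest to the left at -0.40 with an open point.

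Polymerase I had the highest median of the 5 classes, 0.31 on the log2 scale over its 6 specific subunits. Of these 6, 2 rose (33.3%, beside 9.44% of all genes) and 0 fell. For 5 of them both OE-WT libraries lay above both CTRL libraries, against 29.9% of all genes. POLR1A, the largest catalytic subunit of polymerase I (chr2:86020216-86106155, minus strand, GRCh38), stood at 83.3 and 75.7 CPM in OE-WT and at 50.7 and 47.0 CPM in CTRL. Every OE-WT value was above every CTRL value, and the group means of 79.5 ± 5.32 and 48.9 ± 2.65 CPM (SD, n = 2 each) differed by far more than the libraries of a group. The log2 fold change of 0.70 ± 0.08 (SE) is 1.63-fold, with an adjusted p of 1.7e-06 in edgeR's quasi-likelihood test. It was past the threshold in all 14 alternative settings, with log2 fold changes between 0.61 and 0.76.

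POLR1B, the second-largest subunit (chr2:112541915-112579818, plus strand), stood at 22.8 and 24.4 CPM in OE-WT and at 17.5 and 18.3 CPM in CTRL. The groups did not overlap, and the log2 fold change was 0.40 ± 0.11 with an adjusted p of 0.0135 in edgeR. POLR1B was past the threshold in 10 of 14 alternative settings, and its adjusted p was 0.0874 without OE-WT replicate 2 and 0.0771 without CTRL replicate 1. The other 4 polymerase I subunits had positive log2 fold changes that did not pass. POLR1E and POLR1G, which pair as a built-in counterpart of the initiation factor TFIIF, gave 0.22 and 0.25 with adjusted p of 0.143 and 0.0799 in edgeR. POLR1F, a stalk subunit, gave 0.38 ± 0.20 from 63 to 78 counts per library, and 0.20 without OE-WT replicate 1. POLR1H, which is needed for RNA cleavage by the enzyme, gave 0.08 and was the one of the 6 whose sign turned when libraries were scaled by their totals alone (-0.01).

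POLR1C and POLR1D form the assembly platform that polymerases I and III have in common. Neither passed, and their log2 fold changes were 0.02 and 0.05. POLR1C was at 36.8 and 35.4 CPM in OE-WT and at 35.5 and 35.7 CPM in CTRL, and these ranges overlapped. POLR1D was at 152 and 153 CPM in OE-WT and at 148 and 146 CPM in CTRL, close together but without overlap. With library totals alone both signs turned, to -0.07 and -0.04.

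For polymerase II, 1 of 9 tested specific subunits rose (11.1%, beside 9.44% of all genes) and 0 fell. The median log2 fold change of these 9 was 0.11. That median was 0.02 without OE-WT replicate 2, -0.01 without CTRL replicate 1 and 0.04 without CTRL replicate 2. POLR2A, the largest subunit and bearer of the repeat domain that is phosphorylated during transcription, was at 131 and 116 CPM in OE-WT and at 131 and 129 CPM in CTRL. The groups overlapped, and its log2 fold change of -0.08 ± 0.07 had an adjusted p of 0.484 in edgeR. POLR2B, the second-largest subunit, was at 16.5 and 16.1 CPM in OE-WT and at 11.1 and 16.7 CPM in CTRL. CTRL replicate 1 alone was low, so that the log2 fold change of 0.23 ± 0.16 became -0.04 without it and 0.55 without CTRL replicate 2.

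POLR2D, which with POLR2G forms the stalk of polymerase II, was the subunit that rose (chr2:127843553-127858155, minus strand). It was at 44.04 and 47.2 CPM in OE-WT and at 34.1 and 36.5 CPM in CTRL. The groups did not overlap, and the log2 fold change of 0.37 ± 0.09 had an adjusted p of 0.0040 in edgeR. Of the 14 alternatives only the DESeq2 Wald test left POLR2D outside the threshold, at an adjusted p of 0.0694. Its partner POLR2G was at 77.0 and 85.1 CPM in OE-WT and at 79.0 and 71.7 CPM in CTRL, with overlap and a log2 fold change of 0.11. The assembly pair POLR2C and POLR2J gave 0.12 and -0.18, neither past the test. POLR2J was split within CTRL, at 52.1 and 42.0 CPM, while OE-WT lay at 41.3 and 42.1 CPM. It was called lower with library totals alone (adjusted p = 0.0408 in edgeR) and without CTRL replicate 2 (adjusted p = 0.0188 in edgeR), while without CTRL replicate 1 its log2 fold change was -0.01. POLR2I gave 0.00 and POLR2M, a polymerase II-associated protein, gave 0.31 ± 0.17, neither past the test. POLR2M was at 0.12 without CTRL replicate 1, 0.16 without OE-WT replicate 1 and 0.51 without CTRL replicate 2.

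The POLR2J copies cannot be told apart with confidence, since POLR2J, POLR2J2 and POLR2J3 are near-identical and reads may be split between them. POLR2J2 had 1 to 3 counts per library and was not tested. POLR2J3 had 14 to 21 counts and a log2 fold change of -0.10. When the counts of the 3 genes were summed, the log2 fold change was -0.17. POLR2J gave most of that sum, with 411 to 672 counts per library, so the value could hardly differ from that of POLR2J alone. Whether reads were split between the copies was not tested.

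The 5 subunits shared by all 3 polymerases include the most abundant member and the one without counts. Over the 4 that were tested the median log2 fold change was 0.06, and it was 0.03 without OE-WT replicate 2, 0.12 without CTRL replicate 1 and 0.015 without CTRL replicate 2. POLR2L was highest, at 279 and 290 CPM in OE-WT and at 294 and 281 CPM in CTRL, with overlap and a log2 fold change of -0.01. POLR2E was the one of these subunits that rose (chr19:1086574-1095380, minus strand), which is 25.0% of the 4 tested, beside 9.44% of all genes. It was at 145 and 155 CPM in OE-WT and at 127 CPM in both CTRL libraries, without overlap. Its log2 fold change was 0.24 ± 0.07, which is 1.18-fold, with an adjusted p of 0.0113 in edgeR. The POLR2E call was present in 10 of 14 alternative settings, and its adjusted p was 0.110 without OE-WT replicate 2 and 0.0520 without CTRL replicate 1. POLR2H and POLR2K gave 0.02 and 0.11 and did not pass. POLR2F was listed at 0 in all 4 libraries, although every one of the 3 enzymes contains its product, so no level of POLR2F can be read from this table.

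Among the 10 subunits specific to polymerase III, 1 rose (10.0%, beside 9.44% of all genes) and 0 fell. Their median log2 fold change was 0.20. POLR3A, the largest subunit (chr10:77953148-78029522, minus strand), was at 28.2 and 29.6 CPM in OE-WT and at 22.7 and 22.3 CPM in CTRL. The groups did not overlap, and the log2 fold change of 0.36 ± 0.10 had an adjusted p of 0.0138 in edgeR. POLR3A was past the threshold in 11 of 14 alternative settings, and its adjusted p was 0.0863 without OE-WT replicate 2. POLR3B, the second-largest subunit, was at 4.02 and 2.45 CPM in OE-WT and at 1.40 and 3.08 CPM in CTRL. With 18 to 40 counts per library and overlapping groups, its log2 fold change of 0.54 ± 0.34 did not pass. Without CTRL replicate 2 it was 1.20 and passed (adjusted p = 0.0245 in edgeR), and without CTRL replicate 1 it was 0.07.

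POLR3C, POLR3F and POLR3G or its paralog POLR3GL form a trio that takes part in initiation. POLR3G is known as the form of proliferating and pluripotent cells, and POLR3GL as the widely expressed form. POLR3G was at 6.23 and 5.89 CPM in OE-WT and at 4.03 and 4.46 CPM in CTRL, and POLR3GL was at 2.82 and 3.14 CPM in OE-WT and at 3.88 and 3.97 CPM in CTRL. Neither pair of groups overlapped, and the values lay in opposite directions, but neither passed: the log2 fold changes were 0.51 ± 0.21 and -0.40 ± 0.25, with adjusted p of 0.0826 and 0.270 in edgeR. POLR3F gave 0.44 ± 0.24, which was 0.23 without CTRL replicate 1 and 0.68 without CTRL replicate 2, and POLR3C gave 0.07 ± 0.11. POLR3D and POLR3E, which pair as a counterpart of TFIIF, gave 0.16 and 0.03. POLR3K, which acts in RNA cleavage and termination, gave 0.24 with an unadjusted p of 0.0310 and an adjusted p of 0.107 in edgeR. CRCP, a stalk subunit of polymerase III, has a symbol outside the rule and gave 0.00.

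**Figure D2:**
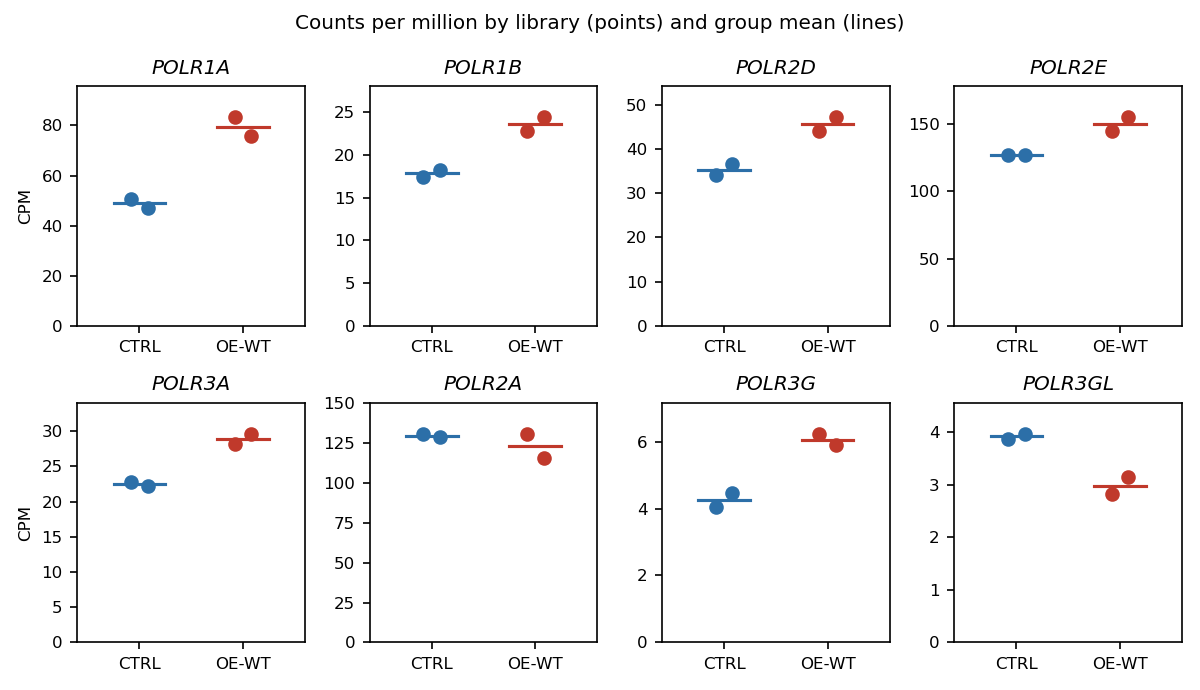
CPM (y axis, from 0) of 8 subunits in each library, with CTRL in blue and OE-WT in red and the mean of each group as a line. The groups are apart for POLR1A, POLR1B, POLR2D, POLR2E and POLR3A, which passed the test, and for POLR3G and POLR3GL, which did not, while POLR2A overlaps.

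Ratios of raw counts within a library do not depend on how the libraries are scaled. They were chosen after the values were seen, 7 in all, and with 2 libraries against 2 an exact permutation test (two-sided) cannot give a p below 0.333. The count of POLR1A over that of POLR2A was 0.638 and 0.655 in OE-WT and 0.388 and 0.365 in CTRL. The groups were far apart, and the mean ratio was 1.72-fold higher in OE-WT (exact permutation p = 0.333). The ratio of POLR3A to POLR2A was 0.216 and 0.256 in OE-WT and 0.174 and 0.173 in CTRL, again without overlap and with the same p in the exact permutation test. POLR1A over POLR3A was 2.96 and 2.56 in OE-WT and 2.23 and 2.11 in CTRL. For the second-largest subunits, the ratios of POLR1B and of POLR3B to POLR2B overlapped between the groups. Their denominator POLR2B was split within CTRL, at 143 and 206 counts, and had 164 counts in each OE-WT library. The CPM of POLR1B itself did not overlap between the groups, so the overlap of its ratio does not show that POLR1B was unchanged. The stalk ratio of POLR2D to POLR2G was 0.572 and 0.554 in OE-WT and 0.432 and 0.510 in CTRL, without overlap.

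POLR3G made up 68.9% of the POLR3G and POLR3GL counts in OE-WT replicate 1 (Wilson 95% interval 58.7 to 77.5%) and 65.2% in OE-WT replicate 2 (55.1 to 74.2%). In CTRL replicate 1 it was 51.0% (41.4 to 60.5%) and in CTRL replicate 2 it was 52.9% (43.4 to 62.2%). The groups did not overlap, but the intervals, which cover counting error only, did, and they rest on 90 to 104 counts per library. The mean count ratio of POLR3G to POLR3GL was 2.04 ± 0.24 in OE-WT and 1.08 ± 0.06 in CTRL (SD, n = 2 each; exact permutation p = 0.333).

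**Figure D3:**
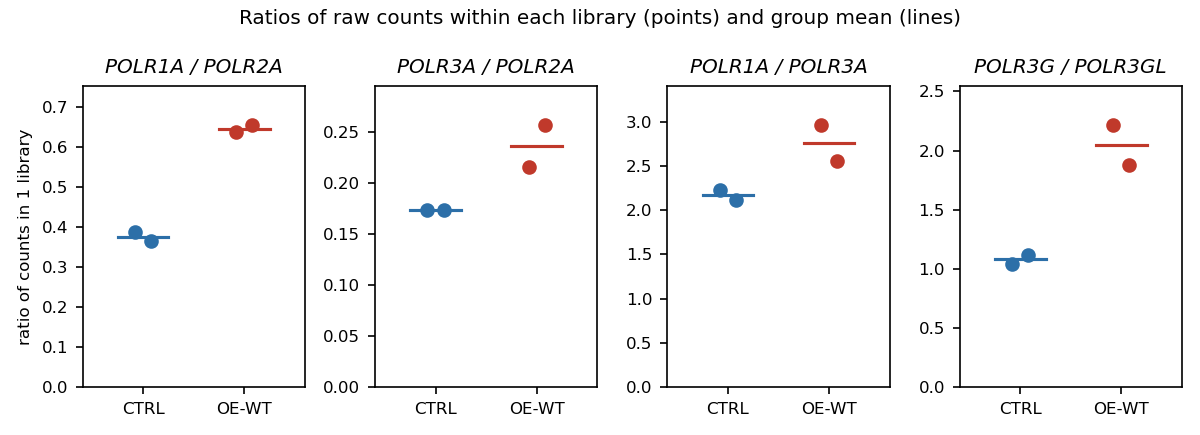
Ratio of the raw counts of a pair of subunits within each library (y axis, from 0), with CTRL in blue, OE-WT in red and group means as lines. In each of the 4 pairs shown, both OE-WT libraries lie above both CTRL libraries; for POLR1A over POLR2A they lie at 0.638 and 0.655 against 0.388 and 0.365.

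The promoters of 4 of the 5 subunits that rose are shown because they hold a feature that most promoters lack, the hexamer CGGAAG at the core of sites bound by ETS family factors. The windows run from 250 bases before to 50 after the start of transcription, from RefSeq on GRCh38.p14, and 24 of 33 members had one. Capitals mark CGGAAG or its reverse complement CTTCCG, and each sequence is written in the direction of transcription. The window of POLR1A is chr2:86105837-86106136 (minus strand), those of POLR1B are chr2:112541786-112542085 and chr2:112542215-112542514 (plus strand), that of POLR2D is chr2:127858106-127858405 (minus strand) and that of POLR3A is chr10:78029466-78029765 (minus strand).
POLR1A: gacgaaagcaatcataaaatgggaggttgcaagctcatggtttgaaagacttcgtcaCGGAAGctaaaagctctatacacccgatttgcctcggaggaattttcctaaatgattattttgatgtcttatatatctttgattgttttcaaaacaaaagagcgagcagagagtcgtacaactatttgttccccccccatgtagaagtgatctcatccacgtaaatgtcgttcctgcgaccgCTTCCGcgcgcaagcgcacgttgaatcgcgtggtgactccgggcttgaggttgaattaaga
POLR1B, first window: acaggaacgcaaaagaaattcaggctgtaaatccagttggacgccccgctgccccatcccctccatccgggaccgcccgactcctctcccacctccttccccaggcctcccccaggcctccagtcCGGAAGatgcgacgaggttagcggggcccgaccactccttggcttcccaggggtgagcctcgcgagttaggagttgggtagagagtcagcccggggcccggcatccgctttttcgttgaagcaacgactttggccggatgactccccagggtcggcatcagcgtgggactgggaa
POLR1B, second window: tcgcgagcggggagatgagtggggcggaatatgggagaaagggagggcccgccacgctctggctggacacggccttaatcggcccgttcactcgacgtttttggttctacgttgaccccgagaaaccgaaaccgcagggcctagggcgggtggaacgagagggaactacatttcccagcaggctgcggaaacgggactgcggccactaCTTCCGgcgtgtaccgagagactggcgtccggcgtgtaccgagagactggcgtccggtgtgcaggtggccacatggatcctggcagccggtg
POLR2D: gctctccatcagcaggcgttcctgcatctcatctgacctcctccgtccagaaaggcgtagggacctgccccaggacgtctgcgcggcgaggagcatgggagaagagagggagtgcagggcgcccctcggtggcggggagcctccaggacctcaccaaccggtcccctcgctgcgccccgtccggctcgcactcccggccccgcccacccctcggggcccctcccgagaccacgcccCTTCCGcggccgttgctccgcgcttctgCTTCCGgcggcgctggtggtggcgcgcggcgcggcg
POLR3A: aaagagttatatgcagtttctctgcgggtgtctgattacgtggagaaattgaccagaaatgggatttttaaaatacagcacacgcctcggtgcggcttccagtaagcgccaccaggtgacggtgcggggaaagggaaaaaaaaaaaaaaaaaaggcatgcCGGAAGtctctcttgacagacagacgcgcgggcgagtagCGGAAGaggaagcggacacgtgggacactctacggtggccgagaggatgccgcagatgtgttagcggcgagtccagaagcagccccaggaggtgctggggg

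In POLR1A the copies begin 193 and 11 bases before the start of transcription, and in POLR3A they begin 90 and 51 bases before it. POLR2D has a copy 14 bases before the start and another 14 bases after it, and the windows of POLR1B have 1 each, 125 and 42 bases before their starts. POLR2E, the other subunit that rose, has none. The motifs were picked with the calls known. Searched on both strands, CGGAAG occurs in 19.5% of all 35116 windows, or in any window of 22.6% of the 27305 genes. These genes, the background of every motif here, include genes that were not tested for expression, and the share among tested genes was not measured. CGGAAG occurs in 7 of the 17 other tested members with a window. A match of letters does not show that a factor binds there.

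Of 4 other motifs searched on both strands, the E-box CACGTG lies 35 bases before the start of POLR3A and in none of the other 4 subunits that rose, in 3 of the 17 other members and in 8.77% of genes. The GC box GGGCGG lies in 3 of the 5 and in 12 of the 17, against 48.3% of genes. The CCAAT box (CCAAT) lies in 0 of the 5, 6 of the 17 and 39.7% of genes, and the TATA box (TATAAA) in 0 of the 5, 1 of the 17 and 14.0% of genes.

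POLR1A, POLR1B and POLR2D are the members on chromosome 2, and all 3 rose. The 776 protein-coding genes tested on that chromosome had a median log2 fold change of 0.04. Genes that start within 3 Mb had medians of -0.07 around POLR1A (30 genes), -0.06 around POLR1B (26 genes) and 0.01 around POLR2D (16 genes). The part of chromosomal position in these calls was not tested.

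Across the 31 tested members the log2 fold change was higher in longer and in GC-poorer transcripts. Pearson's r was 0.60 with the log2 length of the canonical transcript and -0.47 with the GC content of the longest transcript, and Spearman's rho was 0.56 and -0.56. These are descriptions across genes, which share their libraries and are not independent replicates. The relation to length was not measured over all genes, so it cannot be called particular to the members. The relation to GC content was also present over all 11663 protein-coding genes tested, with r = -0.32. With the GC trend removed from each library, r over the members was -0.10. The 5 calls were still made then, with log2 fold changes of 0.73 for POLR1A, 0.37 for POLR2E, 0.34 for POLR3A and 0.30 for POLR2D. POLR1B gave 0.31 and was only just past the threshold (adjusted p = 0.0492 in edgeR). POLR1G was called as well (0.32, adjusted p = 0.0286 in edgeR).

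Levels of different genes were compared as CPM per kilobase of the canonical transcript. In CTRL they ran from 328 ± 10.7 for POLR2L, 212 ± 2.40 for POLR1D and 95.2 ± 6.51 for POLR2G down to 1.29 ± 0.09 for POLR3G and 0.535 ± 0.28 for POLR3B (SD, n = 2). Of 30 pairs of neighbours in this order, 18 had CTRL libraries that did not overlap. Reads from all exons of a gene were divided by the canonical length alone, which was 693 bases for POLR1D. Reads from exons outside that transcript raise the value, and their part in this order was not tested. Among the largest subunits, POLR2A stood at 20.5 ± 0.25 CPM per kilobase, POLR1A at 3.92 ± 0.21 and POLR3A at 3.40 ± 0.05 in CTRL. In OE-WT they stood at 19.5 ± 1.68, 6.37 ± 0.43 and 4.37 ± 0.16. Within polymerase II the second-largest subunit POLR2B was far below POLR2A, at 3.67 ± 1.05 in CTRL and 4.30 ± 0.08 in OE-WT.

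Of the tested members, 20 share exon bases with a gene on the other strand and 6 with a gene on the same strand in GENCODE. The library kit keeps strand, but the strand setting of the counting was not given in the sources used here. Where counting ignored strand, reads of such pairs could not be told apart. For POLR1G, 49.8% of the exon bases lie opposite ERCC1, for POLR2I 69.0% lie opposite a transcript of uncertain status and for POLR1H 24.5% lie opposite POLR1HASP. For POLR2L, 22.8% lie opposite CD151, which had 5766 to 9558 counts per library and a log2 fold change of -0.28. Of the 5 subunits that rose, POLR2D shares 6.68% of its exon bases with a pseudogene on the same strand that had 0 counts in all 4 libraries, and the others share at most 2.23% with any gene.

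Genes called among the factors that work with the polymerases lay in both directions. Over 5 lists with 85 genes tested, 8 rose and 7 fell, which is 9.41% and 8.24% beside 9.44% and 11.6% of all genes, and the median log2 fold change was 0.10. Of the 7 polymerase I factors, which include UBTF, RRN3 and the TAF1 subunits of the selectivity factor, 0 passed at an adjusted p below 0.05 in edgeR and 1 had an unadjusted p below 0.05. That factor was TAF1A, with a log2 fold change of 0.61 and an adjusted p of 0.123 in edgeR.

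Of 30 polymerase II general factors tested, 2 rose (6.67%) and 3 fell, beside 9.44% and 11.6% of all genes. GTF2F1, the large subunit of TFIIF, rose by a log2 fold change of 0.29 and TAF2, a subunit of TFIID, by 0.55. CDK7 and ERCC2, the kinase and a helicase of TFIIH, fell by 0.34 and 0.28 on the log2 scale. GTF2A2, the small subunit of TFIIA, fell by 0.26. With the GC trend removed, ERCC2 at -0.15 and TAF2 at 0.44 did not pass, while CDK7, GTF2A2 and GTF2F1 did. Of 16 elongation factors, SUPT6H rose by 0.36 and SUPT4H1 by 0.22 (12.5%, beside 9.44% of all genes), and 0 fell. SUPT6H, a histone chaperone that travels with polymerase II, was past the threshold in all 14 alternative settings and SUPT4H1 in 7 of 14.

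The polymerase III list had 18 genes, 17 of them factors and 1 the subunit CRCP. Of these, 3 rose (16.7%) and 3 fell, beside 9.44% and 11.6% of all genes. TFIIIC, the factor that recognizes tRNA gene promoters, was split: its largest subunit GTF3C1 was at 195 and 189 CPM in OE-WT and at 245 and 249 CPM in CTRL, while GTF3C4 and GTF3C6 moved the other way. GTF3C1 had a log2 fold change of -0.37 ± 0.06 and an adjusted p of 0.000279 in edgeR, and was called in all 14 alternative settings. GTF3C4 rose by 0.34 ± 0.09 and GTF3C6 by 0.43 ± 0.11. BDP1, a subunit of TFIIIB, rose by 0.75 ± 0.26 from 27 to 42 counts per library, a call present in 5 of 14 alternative settings. SNAPC2 and SNAPC4, subunits of the complex that binds small nuclear RNA promoters, fell by 0.47 and 0.46. With the GC trend removed they gave -0.28 and -0.29 and did not pass (adjusted p = 0.0776 and 0.144 in edgeR). MAF1, the repressor of polymerase III, gave -0.01. Of 14 assembly factors, RPAP1 fell by 0.33 and RUVBL2 rose by 0.19, so that 7.14% rose, beside 9.44% of all genes. The RUVBL2 call was present in 6 of 14 alternative settings, and its value was 0.10 with library totals alone.

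Of these 15 calls among the factors, those of GTF3C1 and SUPT6H were made whichever library was left out. Without OE-WT replicate 1 the adjusted p in edgeR was 0.0632 for GTF2A2 and 0.0755 for GTF2F1, without OE-WT replicate 2 it was 0.146 for RPAP1, and without CTRL replicate 1 it was 0.0972 for SNAPC2 and 0.0699 for GTF3C6. CDK7, ERCC2, TAF2, SUPT4H1, SNAPC4, GTF3C4, BDP1 and RUVBL2 each lost the call under 2 to 4 of the 4 omissions, at adjusted p between 0.0503 and 0.355 in edgeR. The number of factors called higher was 4 without OE-WT replicate 1, 2 without CTRL replicate 1 and 11 at most, and the number called lower was 4 without either OE-WT library or CTRL replicate 2.

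**Figure D4:**
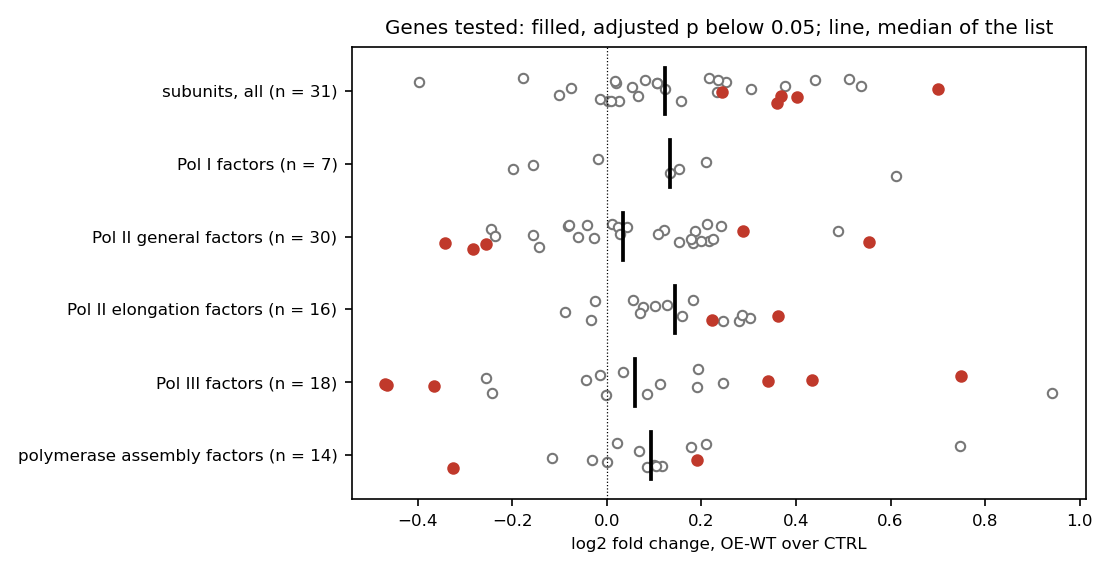
Log2 fold change (x axis, OE-WT over CTRL) of every tested gene in the set of subunits and in 5 lists of factors (rows, with the number tested); filled red points have an adjusted p below 0.05 and black lines are medians. The 5 filled points of the subunits all lie above 0, and the 3 higher and 3 lower points of the polymerase III factors lie on both sides.

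Products of polymerase III could be read for 2 genes. RN7SL2, the RNA of the signal recognition particle, was counted 6366 and 6134 times in OE-WT and 3606 and 2895 times in CTRL, a log2 fold change of 1.27 ± 0.08 with an adjusted p of 2.96e-10 in edgeR. BCYRN1, a cytoplasmic RNA related to Alu repeats, was counted 4234 and 4667 times in OE-WT and 3433 and 3039 times in CTRL, a log2 fold change of 0.79 ± 0.07 with an adjusted p of 5.62e-08 in edgeR. Neither pair of groups overlapped. Both RNAs have many near-identical copies in the genome, so which copies gave the reads is uncertain, and RNAs of this kind enter a poly(A)-selected library only in part. Of the 12 other polymerase III transcripts in the table, 9 were listed at 0 in all 4 libraries and the others had at most 3 counts, so polymerase III output as a whole could not be measured here.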

How the data were processed

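RNA sequencing counts of DLD1 cells were analysed for OE-WT and CTRL, 2 libraries each. The authors aligned the reads to GRCh38 and deposited raw counts per gene, without normalization. The study's methods name HISAT2 and HTSeq, and the submitters' processing notes name HISAT2 2.2.1, featureCounts 2.0.0 and DESeq2 1.34.0. The annotation release and the strand setting were not given in the sources used here, and the table had 0 other columns of per-sample values. GENCODE release 44 gave biotypes and coordinates for 57532 of the 58302 identifiers.

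The main test was edgeR 4.0.16 in R 4.3.3, with the filter by group (minimum count 10), TMM scaling and the quasi-likelihood test (replicate numbers not used), adjusted by Benjamini-Hochberg over the 14133 genes tested. Calls were made at an adjusted p below 0.05 (higher or lower), and separately at an unadjusted p below 0.05 with an absolute log2 fold change above 1. CPM use TMM-scaled library sizes, and 3 counts, the most that a count of 0 allows, are 0.233 to 0.302 CPM; floors and intervals cover counting error only. Lengths are those of the canonical transcript. The libraries of a group were not duplicates (chi-square per degree of freedom 4.48 in CTRL and 5.01 in OE-WT). The steps were tested on simulated data.

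The members, the lists of factors and markers and the tests were chosen with earlier results of these data known. Genes named were all members but 1, which is counted in the totals and not reported here, CRCP, TRMT6, TRMT61A, up to 3 increases and 3 decreases per list past the adjusted threshold, and polymerase III transcripts with at least 10 counts in every library; TAF1A, MAF1 and the markers were named after their values were seen. Alternatives were a block for the replicate number, each library left out in turn, RLE size factors, library totals alone, a minimum of 10 counts in every library or of 1 count in all, the Wald test of DESeq2 1.42.0, the likelihood ratio and exact tests of edgeR, a GC trend removed per library (lowess, span 0.3), POLR2J copies summed, and shared subunits counted by symbol. With a library left out, the lone library of its group was assumed to vary like the other group. Python 3.11.15 with scipy 1.17.1 and matplotlib 3.10.9 gave the intervals and figures. Protein sequences were not used here.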

Additional observations from a re-analysis of the deposited data

How the results depend on the processing

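The number of subunits called higher was 5 and moved to 2 with library totals alone and to 1 with the DESeq2 Wald test, and lay between 2 and 7 with a library left out; called lower were 0, and 1 with library totals alone, and 0 to 1 with a library left out. Library totals alone moved the median log2 fold change from 0.31 to 0.22 for polymerase I, from 0.036 to -0.055 for subunits shared by I and III, from 0.11 to 0.015 for polymerase II, from 0.062 to -0.029 for subunits shared by all 3 and from 0.20 to 0.11 for polymerase III. Counting subunits by symbol gave 0.23 for polymerase I. With no filter beyond 1 count, the median was 0.017 for subunits shared by I and III and 0.18 for polymerase III, which was 0.19 with at least 10 counts in every library. With the GC trend removed, the medians were -0.0064 for I and III, 0.13 for all 3 and 0.16 for polymerase III. Leaving out a library gave medians of 0.22 to 0.33 for polymerase I, 0.029 to 0.039 for subunits shared by I and III, -0.013 to 0.12 for polymerase II, 0.015 to 0.12 for subunits shared by all 3 and 0.13 to 0.22 for polymerase III.

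Among the factors, 8 higher and 7 lower became 2 higher with library totals alone, 2 higher and 1 lower with DESeq2, 4 higher with no filter, 3 lower with the GC trend removed, and 2 to 11 higher and 4 to 5 lower with a library left out. Across genes, the deviations of the same-numbered libraries from their group means had r = -0.07. The labels do not say whether these libraries share a culture or batch, and with 2 libraries per group that was not tested. With a replicate block, the calls over all genes went from 2976 to 2658, the subunits called stayed at 5 higher and 0 lower, and the factors called higher went from 8 to 5.

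Sign changes were of genes whose main log2 fold change lay between -0.10 (POLR2J3) and 0.11 (POLR2K), apart from POLR2B (0.23). With library totals alone they were POLR1H at -0.011, POLR1C at -0.073, POLR1D at -0.038, POLR2I at -0.087, POLR2H at -0.074, POLR3C at -0.026 and POLR3E at -0.065. With the GC trend removed they were POLR1C at -0.046, POLR2A at 0.0048, POLR2J3 at 0.00085, POLR2K at -0.0072, POLR2L at 0.11 and POLR3C at -0.024. With no filter they were POLR1C at -0.00053, POLR2I at -0.016 and POLR2H at -0.0018, and POLR2I was at -0.0028 with at least 10 counts in every library. With a library left out, POLR2B ran from -0.036 to 0.55, POLR1C from -0.0040 to 0.037, POLR2H from -0.060 to 0.10, POLR2I from -0.053 to 0.053, POLR2L from -0.052 to 0.019, POLR3C from -0.026 to 0.17, POLR3E from -0.022 to 0.069 and CRCP from -0.092 to 0.091.

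Over 14 alternatives, the 30 tested members reported singly gave 370 values with the same sign and side of the threshold, 12 that lost a call, 5 that gained one and 28 that turned sign, none of them a member past the threshold in the main test. The named other genes gave 216, 61, 0 and 2. The cause of these changes was not tested. POLR3B, POLR3F and POLR3G had 18 to 62 counts per library, and with 2 libraries per group their differences did not pass the main test. The parts of depth and of the spread between libraries in this were not tested.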
